A study of Rattus norvegicus with 12 samples.

Results

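The 56 genes described here encode the parts of the Wnt signalling pathway, from secreted ligands to nuclear factors, in cultured Müller cells of the rat. They were chosen from the 17315 genes counted in 12 libraries by a rule on gene symbols, which used no measured value but was written with earlier results of these data known. They comprise 18 Wnt ligands, 2 genes of ligand processing, 5 R-spondins and Lgr receptors, 9 Frizzled receptors, 5 co-receptors and Ror or Ryk receptors, 10 secreted inhibitors, 4 cytoplasmic regulators and 3 TCF or LEF factors. Of these, 43 passed edgeR's filter on low counts and were tested, and 13 did not. The rule also covers Wnt2, Fzd7, Rspo4, Lgr6, Tcf7 and Axin1, but no gene was counted under these symbols, so they were not analysed here.

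Wnt proteins are lipid-modified ligands that bind Frizzled receptors. With the co-receptors Lrp5 and Lrp6 they stop the destruction complex from degrading β-catenin, which then joins TCF or LEF factors on DNA, while Ror and Ryk receptors serve branches that do not need β-catenin. In the retina, the branch through Fzd4, Lrp5 and Tspan12 guides vessel growth in response to norrin, a ligand made by Müller glia, and Wnt signals have been studied as a cue for Müller glia to divide after injury.

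The series set SIRMu-1, a Müller cell line that arose without an introduced gene, against primary Müller cell cultures and against rMC-1, a line made with the SV40 large T antigen. All cells derived from Sprague-Dawley rats and grew in 25 mM glucose. The 4 primary cultures came from pups at postnatal day 2 to 4, were at passage 4, 4, 3 and 3 in replicate order, and had 20% serum with amphotericin B at 2.2 mg/L and gentamicin at 87 mg/L. The 5 SIRMu-1 cultures descend from cells of the same age, were at passage 6, 11, 11, 11 and 20, and had 20% serum, with both drugs only in replicates 3 and 5. The 3 rMC-1 cultures descend from adult rats, were at passage 23, 26 and 26, and had 10% serum without the drugs. Each line is a single line, so its spread is that between cultures of 1 line, and whether cultures shared an animal is not labelled. Immortalization, passage, serum, drugs and donor age therefore cannot be told apart in rMC-1, nor can immortalization and passage in SIRMu-1.

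Primary libraries held 22582345 to 29812705 counts in genes, those of SIRMu-1 26349346 to 36730443 and those of rMC-1 27351014 to 38125630. The Wnt genes took 0.413% to 0.523% of these counts in primary, 0.294% to 0.460% in SIRMu-1 and 0.257% to 0.299% in rMC-1 libraries. Levels below are CPM, counts on a common scale of library size set with edgeR's TMM factors, listed in replicate order. Log2 fold changes are written as log2 with ± standard error (SE). Since CPM is not divided by gene length, levels are compared between libraries and not between genes. The proliferation gene Mki67 moved with the groups, at 7.45 to 13.5 CPM in primary, 38.9 to 317 CPM in SIRMu-1 and 572 to 622 CPM in rMC-1 libraries, and its part in the Wnt results was not tested. Within SIRMu-1, replicate 2 had the 38.9 CPM, beside 173 to 317 CPM in the other cultures. A code in the file names, of meaning not given in the sources used here, is shared by primary replicates 1 and 2, by rMC-1 replicates 1 and 2, by SIRMu-1 replicates 1 to 3, and by SIRMu-1 replicates 4 and 5.

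The check of the labelled cell type rested on 15 genes known from Müller glia, among them Dkk3, which is also one of the Wnt genes. Their summed level was 8477 to 9838 CPM in primary, 3697 to 4912 CPM in SIRMu-1 and 1925 to 2082 CPM in rMC-1 libraries. The filament gene Vim, which many cell types express, carried most of these sums, at means of 6207 ± 693, 3540.2 ± 523 and 1367 ± 62.6 CPM (SD, n = 4, 5 and 3). Dkk3 averaged 1224.5 CPM in primary, 382 CPM in SIRMu-1 and only 0.996 CPM in rMC-1 cultures. The other 13 genes summed to 1532 to 2391 CPM, 408 to 812 CPM and 559 to 758 CPM. Of 13 tested markers, 10 were called lower and none higher in SIRMu-1 than in primary cultures, and 9 lower and 1 higher in rMC-1, where 24.4% and 38.9% of all genes were called lower. The one that rose was Rlbp1, the retinaldehyde-binding protein (log2 3.76 ± 0.65, edgeR adjusted p = 0.000276). Rlbp1 lay near 0 in primary cultures, at 0 to 0.134 CPM with 6 counts in all. It measured 0.0944 to 0.230 CPM in SIRMu-1 and 0.632 to 1.25 CPM in rMC-1 cultures. The progenitor factor Sox2 had no count in SIRMu-1, and measured 0.224 to 8.15 CPM in primary and 11.9 to 18.0 CPM in rMC-1 cultures (log2 2.58 ± 1.07, edgeR adjusted p = 0.0596). Sox9, a glial transcription factor, averaged 52.2 ± 21.5 CPM in primary (n = 4) and 71.6 ± 31.3 CPM in SIRMu-1 cultures (n = 5; log2 0.46 ± 0.40, edgeR adjusted p = 0.374), and lay at 0 to 0.0790 CPM in rMC-1 cultures. The glutamate transporter Slc1a3 passed in neither line against primary cultures and was lower in SIRMu-1 than in rMC-1 (log2 -1.27 ± 0.32, edgeR adjusted p = 0.00428). Carbonic anhydrase Car2 had no count in either line and 725 counts in primary cultures. The water channel Aqp4 (2, 0 and 0 counts in primary, SIRMu-1 and rMC-1) and the potassium channel Kcnj10 (13, 0 and 9) were at or near 0 in every group. The 8 markers of fibroblasts and matrix-producing cells, all of which had counts in every group, summed to 29938 to 134532 CPM in primary, 37771 to 58771 CPM in SIRMu-1 and 3359 to 4865 CPM in rMC-1 libraries. The 8 markers of pericytes and smooth muscle summed to 9964 to 14543 CPM, 6901 to 16436 CPM and 1440 to 3666 CPM in the same order, and Kcnj8 had no count in either line. Both lists were thus lower in every rMC-1 library than in any other. Col1a1 and Col3a1 carried most of the fibroblast sums, at means of 56504 and 20127 CPM in primary and 36743 and 7008 CPM in SIRMu-1. Col1a2 of the same list was near the floor, at 1.01 to 2.37 CPM in primary, 1.54 to 2.19 CPM in SIRMu-1 and 0.0412 to 0.199 CPM in rMC-1. Whether its low counts come from the annotation or the counting was not tested. Of the 8 fibroblast markers, 4 were called lower and 4 did not pass in SIRMu-1 against primary cultures, and 8 were lower in rMC-1. Thy1, Dcn and Lum averaged 566, 681 and 162 CPM in primary cultures, but 0.0287, 4.54 and 3.30 CPM in SIRMu-1. Pdgfra averaged 53.0 and 56.8 CPM in these groups, and Postn 9469 and 4461 CPM. Primary Thy1 was 920 and 1078 CPM in replicates 1 and 2, but 133 and 134 CPM in replicates 3 and 4. Dcn reached 1962 CPM in primary replicate 2 and 110 to 451 CPM in the rest. In SIRMu-1, Dcn was 20.3 CPM in replicate 5 and 0.165 to 1.35 CPM in the rest. In bulk RNA, fewer cells of a type and less RNA per cell cannot be told apart, and the part of these markers in the Wnt results was not tested. The lists for endothelium (1.95 to 11.1 CPM in primary, 24.9 to 45.2 CPM in SIRMu-1, 0.412 to 0.826 CPM in rMC-1), microglia and macrophages (3.62 to 10.6, 0.749 to 4.22 and 2.21 to 3.5 CPM) and astrocytes (3.40 to 23.0, 1.10 to 2.31 and 2.79 to 4.02 CPM) had summed levels under 50 CPM in every library. The endothelial sum of SIRMu-1 was mostly Tek, at 0.711 to 2.48 CPM in primary, 24.5 to 44.6 CPM in SIRMu-1 and 0.330 to 0.769 CPM in rMC-1. Kdr had 356, 1 and 1 counts in that order, and Cldn5 had none. Of 3 tested endothelial genes, 1 was called higher, 1 lower and 1 did not pass in SIRMu-1 against primary cultures. Markers of retinal pigment epithelium summed to 17.5 to 26.6, 2.70 to 4.91 and 12.1 to 13.7 CPM, and those of neurons and photoreceptors to 14.0 to 203, 3.37 to 13.5 and 69.6 to 125 CPM, in the same order of groups.

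Primary cultures held the highest mean level for 24 of the 43 tested Wnt genes, rMC-1 for 10 and SIRMu-1 for 9. A gene was called changed at an edgeR quasi-likelihood p under 0.05 after Benjamini-Hochberg adjustment over all 11321 tested genes. Between SIRMu-1 and primary cultures, 24 Wnt genes were called, 5 higher and 19 lower in SIRMu-1. That share of 55.8% stands beside 46.1% of all tested genes, of which 21.7% were called higher and 24.4% lower. The median log2 fold change of the Wnt genes was -0.85, against -0.02 over all genes. Between rMC-1 and primary cultures, 27 were called, 6 higher and 21 lower in rMC-1. This share of 62.8% was below the 70.8% of all genes called there (31.9% higher, 38.9% lower), while the median was -1.22 against -0.15. Between the lines, 24 were called, 15 higher and 9 lower in SIRMu-1, or 55.8% beside 63.2% of all genes (32.7% higher, 30.5% lower), with medians of 0.28 and 0.03. Shares of called Wnt genes in both rMC-1 comparisons thus lay below the share over all genes.

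The groups did not overlap in CPM for 17 of the 43 Wnt genes between SIRMu-1 and primary cultures (35.3% of all tested genes), for 30 between rMC-1 and primary cultures (70.9%) and for 22 between the lines (63%). Every rMC-1 library lay below every other library for 11 Wnt genes, a pattern that 25.6% of all tested genes had. Every primary library lay above all others for 8 Wnt genes (12.7% of all genes): Rspo3, Fzd1, Ror1, Sfrp1, Sfrp4, Wif1, Dkk3 and Nkd1. SIRMu-1 stood above both other groups for Rspo1 and Fzd2 (4.92% of all genes), and rMC-1 for Wnt2b, Wnt6, Fzd6, Notum and Tcf7l2 (24.1%).

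After summing libraries that share a file-name code, the SIRMu-1 against primary comparison called 14 Wnt genes, 2 higher and 12 lower, in place of 24, while the share of all genes called went from 46.1% to 26.5%. Dkk3, Fzd2, Fzd5, Nkd2, Porcn, Ror2, Sfrp2, Tcf7l1, Wnt2b and Wnt4 lost their call there, with edgeR adjusted p of 0.0519 to 0.153. The same summing ended the calls of Axin2, Fzd1, Nkd1, Wls and Wnt4 between the lines (0.0523 to 0.134) and of Fzd5 and Wnt6 in rMC-1 against primary cultures (0.0803 to 0.149). With only the SIRMu-1 cultures that had the drugs set against primary cultures, Dkk3, Fzd2, Fzd5, Lrp5, Ror1, Ror2, Sfrp2 and Wnt6 lost their call (0.0565 to 0.131), while Wnt16 and Wnt5b gained one. That fit kept 2 SIRMu-1 libraries, and the share of all genes called went from 46.1% to 29.6%. Under library totals in place of TMM factors, the median of all genes moved to 0.32 for rMC-1 against primary cultures and to -0.40 between the lines, and the Wnt genes split into 10 higher and 18 lower, and 11 higher and 10 lower. Fzd5, Wnt5b and Wnt11 then lost their call in rMC-1 against primary cultures (0.0896 to 0.115), and Axin2, Fzd1, Ryk and Wls between the lines (0.0514 to 0.891).

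**Figure D1:**
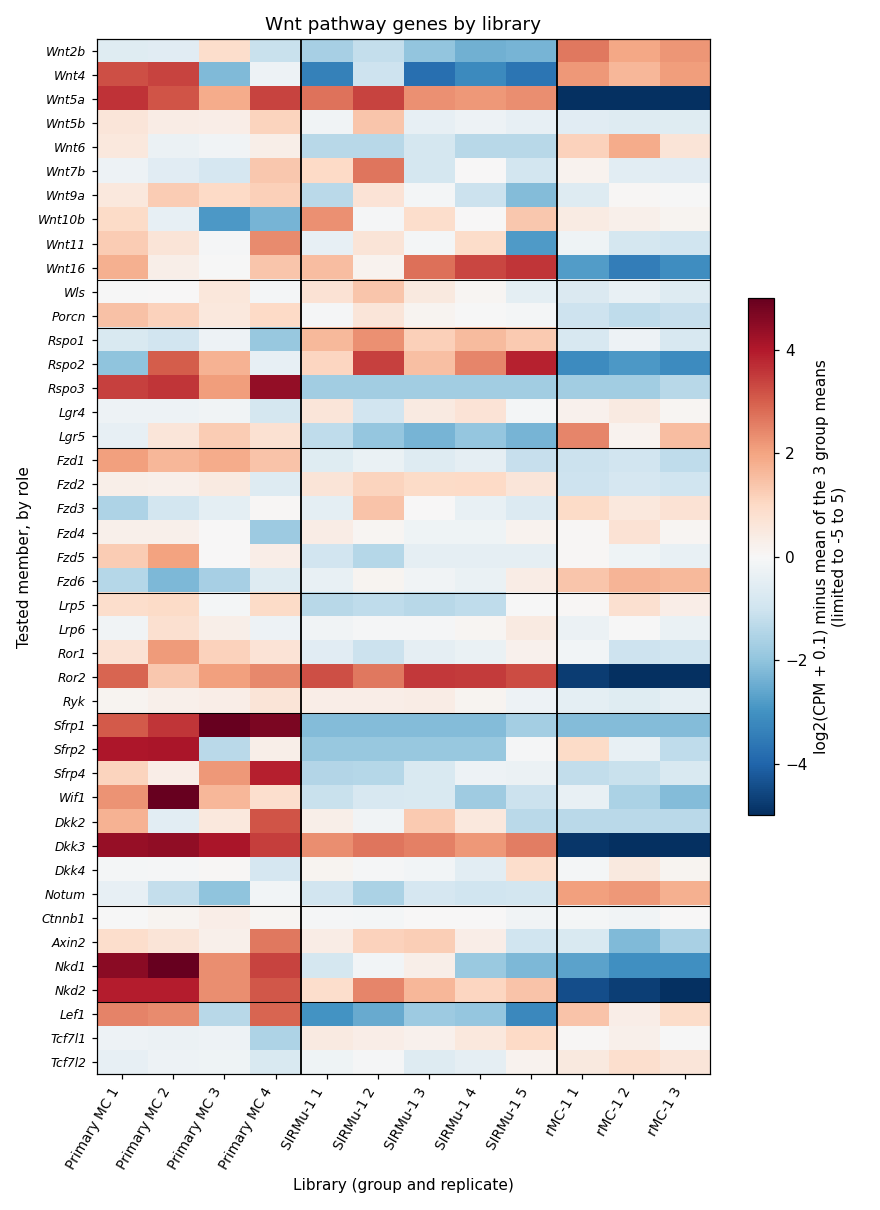
Level of each of the 43 tested Wnt genes in the 12 libraries, as the log2 CPM of a library minus the gene's mean over the 3 group means, with genes in rows grouped by role. The rMC-1 columns are the lowest for Wnt5a, Wnt16, Rspo2, Ror2, Dkk3 and Nkd2, and the SIRMu-1 columns are the highest for Rspo1.

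Of the 10 tested Wnt ligands, 4 fell and none rose in SIRMu-1 against primary cultures, 2 rose and 4 fell in rMC-1 against primary cultures, and 2 were higher and 3 lower in SIRMu-1 than in rMC-1. These shares of 40%, 60% and 50% lay below the 46.1%, 70.8% and 63.2% of all tested genes. Wnt5a, the best studied ligand of the β-catenin-independent branches, was nearly absent from rMC-1 together with Ror2, its tyrosine kinase receptor. Wnt5a measured 67.8, 48.4, 19.6 and 57.6 CPM in primary and 35.9, 56.9, 27.1, 24.7 and 27.7 CPM in SIRMu-1 cultures. The rMC-1 cultures held 2 Wnt5a counts in all, both in replicate 1. SIRMu-1 and primary libraries overlapped and did not pass the test (log2 -0.49 ± 0.36, edgeR adjusted p = 0.29), whereas every rMC-1 library lay far below both. The ratio of primary to rMC-1 counts, at equal scaled depth, was 2979 (95% counting interval 824 to 24608), and that of SIRMu-1 to rMC-1 counts was 2137 (95% counting interval 591 to 17654), intervals that cover counting error only. EdgeR adjusted p was 4.67e-07 and 8.67e-07.

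Ror2 measured 48.9, 16.1, 26.8 and 34.4 CPM in primary, 60.7, 40.4, 75.5, 73.8 and 61.7 CPM in SIRMu-1 and 0.142, 0.0412 and 0 CPM in rMC-1 cultures. All rMC-1 values lay under 1 CPM, and SIRMu-1 values lay at or above the upper part of the primary range, with some overlap. Ror2 fell in rMC-1 against primary cultures (log2 -8.99 ± 0.65, edgeR adjusted p = 4.35e-07) and was higher in SIRMu-1 than in rMC-1 (log2 9.97 ± 0.65, edgeR adjusted p = 3.47e-07). Without rMC-1 replicate 1 the values were -10.12 and 11.09, and without replicate 3 -8.38 and 9.36. The higher level in SIRMu-1 than in primary cultures (log2 0.98 ± 0.33, edgeR adjusted p = 0.0302) did not pass without any 1 of primary replicates 2 and 3 or SIRMu-1 replicates 1, 3 and 4 (edgeR adjusted p = 0.0514 to 0.071), nor with SIRMu-1 cultures matched to the primary ones for drugs.

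The promoters of this ligand and its receptor are shown because both genes had almost no counts in rMC-1. The letters are the 250 bases before each gene's start from RefSeq on assembly GRCr8, 5′ to 3′ on the gene's strand, with CG dinucleotides, the sites of DNA methylation in mammals, in capitals. The authors' files use another build, rn6, and methylation was not measured.
Wnt5a (chr16:3703415-3703664, plus strand): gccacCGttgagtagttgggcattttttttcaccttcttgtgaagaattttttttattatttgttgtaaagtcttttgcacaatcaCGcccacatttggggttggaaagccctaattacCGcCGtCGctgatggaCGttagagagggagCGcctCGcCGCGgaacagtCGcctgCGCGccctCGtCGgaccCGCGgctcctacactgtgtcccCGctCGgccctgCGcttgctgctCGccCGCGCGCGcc
Ror2 (chr17:12124499-12124748, plus strand): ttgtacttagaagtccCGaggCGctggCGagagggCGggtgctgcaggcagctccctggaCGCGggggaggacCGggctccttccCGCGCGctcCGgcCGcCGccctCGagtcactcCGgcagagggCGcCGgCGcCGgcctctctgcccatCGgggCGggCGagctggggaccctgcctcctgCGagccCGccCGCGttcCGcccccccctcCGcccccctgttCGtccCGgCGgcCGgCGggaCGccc
The windows hold 25 CG dinucleotides for Wnt5a and 34 for Ror2, against a median of 5 over all 33469 RefSeq promoter windows of this length. At least 25 were present in 9.74% of all windows, and the median over the 27 tested Wnt genes with a window was 24.

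Wnt16, another ligand, measured 3.63, 1.23, 0.984 and 2.73 CPM in primary and 3.06, 1.13, 7.39, 10.9 and 12.8 CPM in SIRMu-1 cultures, while rMC-1 held 3 counts in all. The first 2 groups overlapped and their difference missed the threshold (log2 1.72 ± 0.68, edgeR adjusted p = 0.0574), passing without SIRMu-1 replicate 1 (0.0486) or replicate 2 (0.0141), with drug-matched SIRMu-1 cultures (0.029) and by DESeq2 (adjusted p = 0.0276). Over all alternatives the adjusted p of Wnt16 was 0.0141 to 0.151. The ratio to rMC-1 counts was 87.2 (95% counting interval 29.4 to 426) for primary and 280.2 (95% counting interval 95.6 to 1361) for SIRMu-1 cultures. Wnt4, a ligand of kidney and gonad development, had its lowest mean in SIRMu-1. Primary cultures measured 107, 119, 2.41 and 9.52 CPM, SIRMu-1 0.996, 5.44, 0.743, 1.15 and 0.824 CPM and rMC-1 51.0, 36.6 and 48.5 CPM. Both high primary libraries are those at passage 4 that share a file-name code, and primary replicate 3 lay below SIRMu-1 replicate 2. Wnt4 fell in SIRMu-1 against primary cultures (log2 -5.0 ± 1.04, edgeR adjusted p = 0.00241) and was lower than in rMC-1 (log2 -4.60 ± 1.05, edgeR adjusted p = 0.00247). Without SIRMu-1 replicate 2 these values were -5.99 and -5.59. The rMC-1 values fell within the primary range (log2 -0.39 ± 1.03, edgeR adjusted p = 0.743).

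Wnt2b was highest in rMC-1, at 3.30 to 5.41 CPM, lowest in SIRMu-1 (0.0658 to 0.283 CPM) and between them in primary cultures (0.308 to 1.52 CPM), with no overlap between any of the groups. Against primary cultures, Wnt2b rose in rMC-1 (log2 2.6 ± 0.56, edgeR adjusted p = 0.00131) and fell in SIRMu-1 (log2 -2.21 ± 0.55, edgeR adjusted p = 0.0064). Without primary replicate 3, the highest of its group, the values were 3.30 and -1.51. Wnt6 had 18 counts in primary, 1 in SIRMu-1 and 70 in rMC-1 cultures, and the ratio to SIRMu-1 was 26.2 (95% counting interval 4.13 to 1090.2) for primary and 81.3 (95% counting interval 14.1 to 3255) for rMC-1. Its rise in rMC-1 over primary cultures (log2 1.55 ± 0.59, edgeR adjusted p = 0.0337) did not pass without any 1 of primary replicates 2 and 3 and rMC-1 replicates 1 and 2 (edgeR adjusted p = 0.0552 to 0.159).

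Wnt9a measured 4.69, 7.78, 6.53 and 7.36 CPM in primary, 1.17, 5.22, 2.97, 1.45 and 0.637 CPM in SIRMu-1 and 2.02, 3.28 and 3.16 CPM in rMC-1 cultures. Apart from SIRMu-1 replicate 2, every library of the lines lay below the primary ones. It fell in SIRMu-1 (log2 -1.52 ± 0.50, edgeR adjusted p = 0.0263), a call that did not pass without any 1 of primary replicates 2 and 4 and SIRMu-1 replicates 1 and 4 (edgeR adjusted p = 0.0527 to 0.0611). In rMC-1 the difference was log2 -1.22 ± 0.58, edgeR adjusted p = 0.0779, which passed without SIRMu-1 replicate 2 (0.0283) or 5 (0.0445). Wnt5b and Wnt11 fell in rMC-1 against primary cultures (log2 -1.30 ± 0.47, edgeR adjusted p = 0.0275, and log2 -2.18 ± 0.88, edgeR adjusted p = 0.0426). Wnt5b did not pass without primary replicate 4 or any 1 rMC-1 replicate (edgeR adjusted p = 0.0649 to 0.0824), nor Wnt11 without primary replicate 1 or 4, any 1 rMC-1 replicate or SIRMu-1 replicate 1 or 3 (0.0522 to 0.135; log2 fold change -1.54 without primary replicate 4). Against primary cultures, Wnt5b in SIRMu-1 (log2 -0.42 ± 0.40, edgeR adjusted p = 0.419) passed only without replicate 2 of that line (0.00688), in the leave-one-out fits. Wnt7b and Wnt10b passed no comparison, although Wnt10b rose in SIRMu-1 over primary cultures without primary replicate 1 (edgeR adjusted p = 0.0248).

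The other 8 ligands were not tested. Wnt8a, Wnt8b and Wnt9b had no count in any library, and Wnt1, Wnt3, Wnt3a and Wnt7a had 0, 4 and 7 (Wnt1), 2, 2 and 0 (Wnt3), 1, 0 and 0 (Wnt3a) and 16, 1 and 6 (Wnt7a) summed counts in primary, SIRMu-1 and rMC-1 cultures. Wnt10a had 62 counts in primary cultures, of which 40 were in replicate 4, none in SIRMu-1 (at least 30.04-fold lower, against a floor of 3 counts over the group) and 1 in rMC-1, a ratio of 77.6 (95% counting interval 13.4 to 3115).

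Ligand processing was measured through Wls, the carrier of Wnt proteins to the cell surface, and Porcn, the enzyme that attaches their lipid. Porcn measured 29.7, 24.2, 15.6 and 21.2 CPM in primary, 10.2, 16.3, 11.9, 10.7 and 10.1 CPM in SIRMu-1 and 5.16, 4.39 and 4.74 CPM in rMC-1 cultures. Every rMC-1 value lay below all others, and SIRMu-1 lay below primary cultures except for an overlap of SIRMu-1 replicate 2 with primary replicate 3. Porcn fell in SIRMu-1 (log2 -0.94 ± 0.20, edgeR adjusted p = 0.00253) and in rMC-1 (log2 -2.25 ± 0.24, edgeR adjusted p = 7.98e-06), and was higher in SIRMu-1 than in rMC-1 (log2 1.31 ± 0.23, edgeR adjusted p = 0.000372). Wls measured 1102, 1137, 1639 and 1047 CPM in primary, 1828, 2889, 1556, 1186 and 799 CPM in SIRMu-1 and 679, 867 and 709.9 CPM in rMC-1 cultures. SIRMu-1 spread from below the top rMC-1 value to above all primary values. Wls passed between the lines (log2 1.14 ± 0.35, edgeR adjusted p = 0.0131) but not without rMC-1 replicate 1 (0.0661) or 3 (0.0633). In rMC-1 against primary cultures it was log2 -0.71 ± 0.35, edgeR adjusted p = 0.0894, and passed without SIRMu-1 replicate 2 (0.0327).

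**Figure D2:**
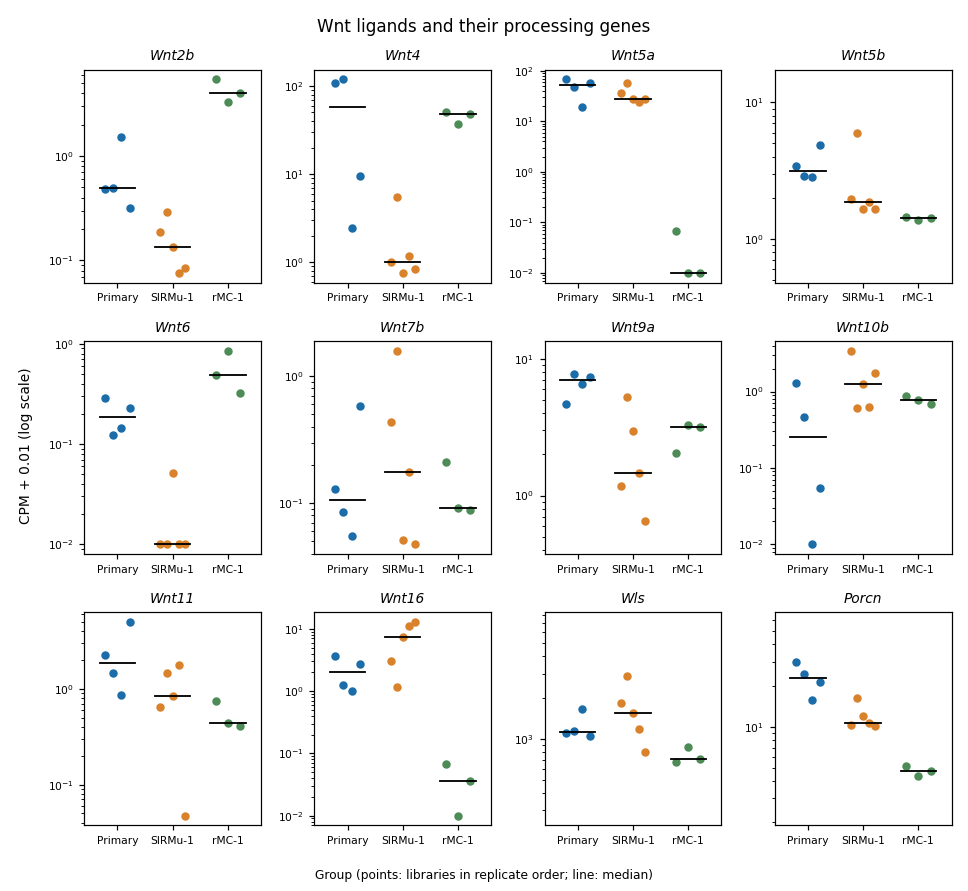
Level of the 10 tested Wnt ligands and the processing genes Wls and Porcn, as CPM plus 0.01 on a log axis. Each point is a library in replicate order (4 primary, 5 SIRMu-1, 3 rMC-1) and each line a group's median. Wnt5a and Wnt16 lie at or near the bottom of the axis in rMC-1, and Wnt2b falls into 3 separate groups.

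R-spondins are secreted proteins that bind Lgr receptors and keep Frizzled receptors on the cell surface, which strengthens Wnt signals. Their 3 measured members each had a different pattern. Rspo1 measured 13.0, 11.3, 18.2 and 5.82 CPM in primary, 66.7, 106, 50.2, 65.2 and 54.0 CPM in SIRMu-1 and 12.5, 18.3 and 12.4 CPM in rMC-1 cultures. Every SIRMu-1 library lay above all others. Rspo1 rose in SIRMu-1 against primary cultures (log2 2.5 ± 0.33, edgeR adjusted p = 0.000125) and against rMC-1 (log2 2.25 ± 0.36, edgeR adjusted p = 0.000204), and did not pass between rMC-1 and primary cultures (log2 0.26 ± 0.34, edgeR adjusted p = 0.517, 95% interval -0.49 to 1.00).

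Rspo2 measured 0.118, 7.19, 2.86 and 0.573 CPM in primary and 1.74, 9.44, 2.44, 4.77 and 12.8 CPM in SIRMu-1 cultures, ranges that overlap, and had 1 count in all of rMC-1. The ratio to rMC-1 was 341 (95% counting interval 60.6 to 13500.3) for primary and 771 (95% counting interval 138 to 30482) for SIRMu-1 cultures, with edgeR adjusted p of 0.00171 and 0.000815. Rspo3 measured 3.47, 3.89, 1.34 and 6.92 CPM in primary cultures, 379 counts in all. SIRMu-1 had no Rspo3 count, at least 184-fold lower, and rMC-1 had 1, a ratio of 475 (95% counting interval 84.7 to 18792). So SIRMu-1 held Rspo1 and Rspo2 without detected Rspo3, primary cultures held all 3, and rMC-1 held Rspo1 beside single counts of the others.

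Lgr4, a receptor of R-spondins, ranged over 34.6 to 56.8 CPM in primary, 32.8 to 102 CPM in SIRMu-1 and 68.1 to 87.8 CPM in rMC-1 cultures, and passed no comparison. Without SIRMu-1 replicate 2, the lowest of its line, it passed in SIRMu-1 (edgeR adjusted p = 0.00697) and in rMC-1 (0.0186) against primary cultures. Lgr5, the stem cell marker of that family, ranged over 0.276 to 1.12 CPM in primary, 0 to 0.107 CPM in SIRMu-1 and 0.474 to 2.65 CPM in rMC-1 cultures. All SIRMu-1 values lay below the others. Lgr5 fell in SIRMu-1 against primary cultures (log2 -4.17 ± 0.80, edgeR adjusted p = 0.00142) and against rMC-1 (log2 -5.25 ± 0.81, edgeR adjusted p = 0.00016). Without SIRMu-1 replicate 1 the values were -5.03 and -6.12, and without rMC-1 replicate 1 the latter was -4.64.

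Among the 6 tested Frizzled receptors, 2 rose and 2 fell in SIRMu-1, and 2 rose and 3 fell in rMC-1, each against primary cultures (66.7% and 83.3%, beside 46.1% and 70.8% of all genes). Fzd1 was highest in primary cultures. It measured 519.9, 402, 452 and 339 CPM there, 83.7, 99.4, 80.0, 92.7 and 56.1 CPM in SIRMu-1 and 59.4, 64.9 and 52.1 CPM in rMC-1 cultures. All primary values lay above all values of the lines, which overlapped each other. Fzd1 fell in SIRMu-1 (log2 -2.38 ± 0.17, edgeR adjusted p = 3.54e-06) and in rMC-1 (log2 -2.86 ± 0.21, edgeR adjusted p = 5.64e-07). The difference between the lines (log2 0.49 ± 0.19, edgeR adjusted p = 0.039) did not pass without any 1 rMC-1 replicate or any 1 of SIRMu-1 replicates 1 to 4 (edgeR adjusted p = 0.0568 to 0.251).

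Fzd2 and Fzd6 separated all 3 groups. Fzd2, like Fzd1 a receptor for several Wnts, measured 166, 164, 186 and 87.7 CPM in primary, 216, 295, 267, 271 and 207 CPM in SIRMu-1 and 65.9, 76.5 and 69.1 CPM in rMC-1 cultures. It rose in SIRMu-1 (log2 0.74 ± 0.20, edgeR adjusted p = 0.00956) and fell in rMC-1 (log2 -1.10 ± 0.23, edgeR adjusted p = 0.00102) against primary cultures. The lines differed too (log2 1.83 ± 0.23, edgeR adjusted p = 3.2e-05). Fzd6, which acts with Fzd3 in planar cell polarity, measured 19.7, 11.1, 16.5 and 33.4 CPM in primary, 40.5, 57.4, 46.6, 41.8 and 68.4 CPM in SIRMu-1 and 140.1, 173 and 165 CPM in rMC-1 cultures. It rose in SIRMu-1 (log2 1.34 ± 0.28, edgeR adjusted p = 0.00242) and further in rMC-1 (log2 2.98 ± 0.32, edgeR adjusted p = 6.78e-06), and the lines differed (log2 -1.64 ± 0.29, edgeR adjusted p = 0.000369).

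Fzd3 measured 5.05, 7.67, 10.5 and 15.2 CPM in primary, 10.5, 39.5, 14.9, 11.5 and 9.22 CPM in SIRMu-1 and 29.0, 21.3 and 24.5 CPM in rMC-1 cultures, where SIRMu-1 replicate 2 was the highest library of all. Its rise in rMC-1 (log2 1.38 ± 0.50, edgeR adjusted p = 0.0262) did not pass without primary replicate 1 (0.0664), primary replicate 2 (0.0626) or rMC-1 replicate 1 (0.0561). Without SIRMu-1 replicate 2 it was lower in SIRMu-1 than in rMC-1 (-1.11, edgeR adjusted p = 0.0101). Fzd5, a receptor of eye development, measured 14.2, 23.8, 5.77 and 7.36 CPM in primary, 2.95, 2.08, 4.17, 4.18 and 4.16 CPM in SIRMu-1 and 5.98, 5.01 and 4.45 CPM in rMC-1 cultures. All SIRMu-1 values lay below the rest, and rMC-1 overlapped primary replicate 3. Fzd5 fell in SIRMu-1 (log2 -1.87 ± 0.39, edgeR adjusted p = 0.00227). Its fall in rMC-1 (log2 -1.31 ± 0.45, edgeR adjusted p = 0.0201) did not pass without primary replicate 2 (0.0656), rMC-1 replicate 2 (0.0722) or rMC-1 replicate 3 (0.0865). Fzd4, the norrin receptor, ranged over 23.2 to 99.4 CPM in primary, 71.1 to 105 CPM in SIRMu-1 and 85.4 to 135 CPM in rMC-1 cultures and passed no comparison (95% interval of log2 fold change -0.57 to 0.91 for SIRMu-1 against primary cultures). Of the untested receptors, Fzd10 had 18 counts in primary cultures and none in the lines (at least 8.72-fold lower in SIRMu-1 and 7.51-fold lower in rMC-1), Fzd8 had 1 count in all, and Fzd9 had 26, 40 and 8 in primary, SIRMu-1 and rMC-1 cultures.

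**Figure D3:**
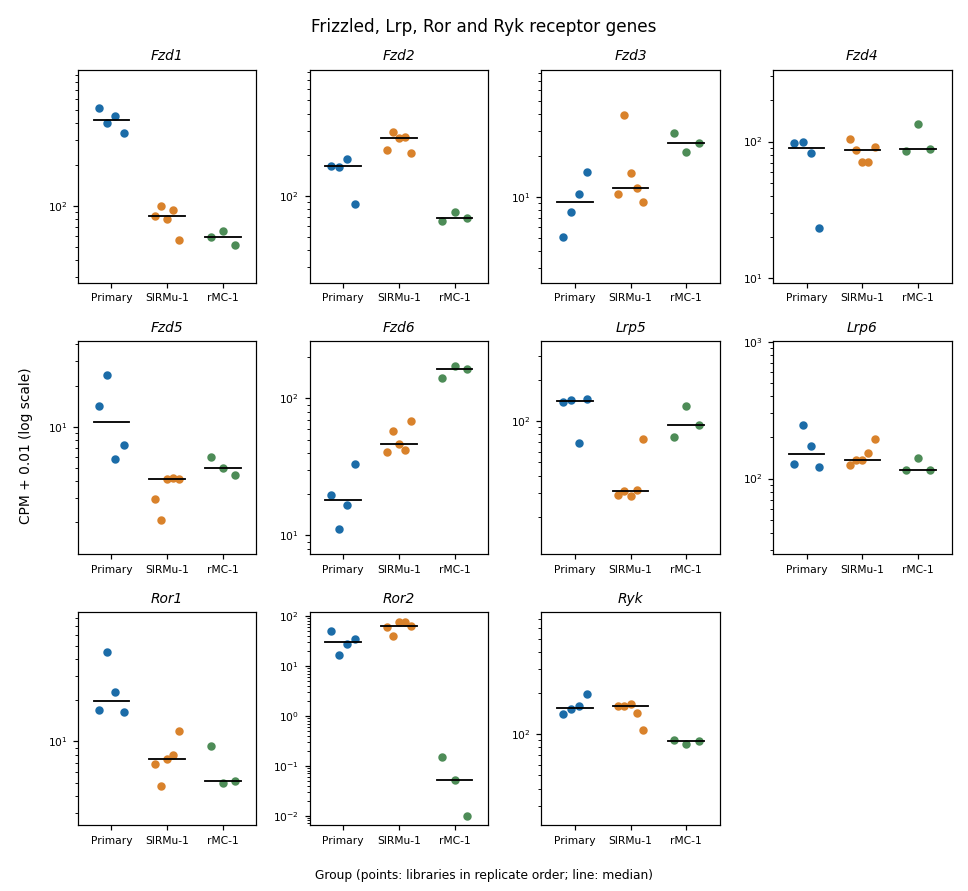
Level of the 6 tested Frizzled receptors and of Lrp5, Lrp6, Ror1, Ror2 and Ryk, as CPM plus 0.01 on a log axis, with a point per library in replicate order and a line at each group's median. Fzd2 and Fzd6 form 3 separate groups, and Ror2 lies at 0 to 0.142 CPM in all 3 rMC-1 cultures.

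Of the co-receptors, Lrp5 fell in SIRMu-1 and Lrp6 passed no comparison. Lrp5 measured 138, 144, 69.7 and 145 CPM in primary, 28.8, 30.7, 28.4, 31.3 and 73.6 CPM in SIRMu-1 and 77.2, 129 and 93.1 CPM in rMC-1 cultures. SIRMu-1 was low in replicates 1 to 4, and replicate 5, at passage 20, passed primary replicate 3. Lrp5 fell in SIRMu-1 against primary cultures (log2 -1.69 ± 0.32, edgeR adjusted p = 0.00146) and against rMC-1 (log2 -1.37 ± 0.34, edgeR adjusted p = 0.0043), and did not pass between rMC-1 and primary cultures (log2 -0.31 ± 0.37, edgeR adjusted p = 0.458). Lrp6 measured 128, 248, 173 and 121 CPM in primary, 125, 137, 138, 155 and 195 CPM in SIRMu-1 and 115, 142 and 115 CPM in rMC-1 cultures, with overlap between all groups. Its 95% intervals were -0.61 to 0.30 for SIRMu-1 and -0.95 to 0.09 for rMC-1 against primary cultures on the log2 scale.

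Ror1, the sister receptor of Ror2, measured 16.9, 45.1, 22.8 and 16.4 CPM in primary, 6.79, 4.72, 7.43, 8.0 and 11.8 CPM in SIRMu-1 and 9.17, 4.92 and 5.08 CPM in rMC-1 cultures. Every primary value lay above every value of the lines. Ror1 fell in SIRMu-1 (log2 -1.71 ± 0.35, edgeR adjusted p = 0.0022) and in rMC-1 (log2 -1.99 ± 0.42, edgeR adjusted p = 0.00124). Ryk, a Wnt-binding receptor without kinase activity, measured 140.1, 152, 160.3 and 198 CPM in primary, 162, 161, 167, 142 and 108 CPM in SIRMu-1 and 91.2, 85.0 and 89.9 CPM in rMC-1 cultures. The rMC-1 values lay below all others. Ryk fell in rMC-1 (log2 -0.87 ± 0.16, edgeR adjusted p = 0.000457) and was higher in SIRMu-1 than in rMC-1 (log2 0.74 ± 0.15, edgeR adjusted p = 0.00137). With library totals in place of TMM factors the latter was 0.28 (edgeR adjusted p = 0.136).

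Of 8 tested secreted inhibitors, 5 fell and none rose in SIRMu-1, and 5 fell and 1 rose in rMC-1, each against primary cultures. The shares called were 62.5% and 75%, beside 46.1% and 70.8% of all genes. Their median log2 fold changes were -2.55 and -4.16, beside -0.02 and -0.15 over all genes. Sfrp proteins bind Wnts outside the cell. Sfrp1 measured 3.71, 5.31, 22.2 and 11.6 CPM in primary cultures, 996 counts in all. SIRMu-1 held 1 Sfrp1 count over 5 libraries and rMC-1 none, so the ratio of primary to SIRMu-1 was 1448 (95% counting interval 259 to 57244) and rMC-1 was at least 416-fold lower. Sfrp4 measured 14.0, 7.93, 29.2 and 95.5 CPM in primary, 2.24, 2.33, 3.72, 5.30 and 5.13 CPM in SIRMu-1 and 2.62, 2.93 and 3.69 CPM in rMC-1 cultures. All primary values lay above the lines, and primary replicate 4 was the highest. Sfrp4 fell in SIRMu-1 (log2 -3.29 ± 0.62, edgeR adjusted p = 0.00135) and in rMC-1 (log2 -3.57 ± 0.77, edgeR adjusted p = 0.00142), or fell by 2.19 and 2.47 on the log2 scale without that replicate.

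Sfrp2 ranged over 0.0447 to 6.25 CPM in primary cultures, with the high values in replicates 1 and 2 at passage 4, and over 0 to 0.262 CPM in SIRMu-1 and 0.0527 to 0.627 CPM in rMC-1 cultures. It fell in SIRMu-1 (log2 -5.86 ± 1.50, edgeR adjusted p = 0.0076), with -9.58 without replicate 5, the only SIRMu-1 culture with Sfrp2 counts. In rMC-1 the difference was log2 -3.46 ± 1.52, edgeR adjusted p = 0.0597, which passed without primary replicate 3 (0.0212) or 4 (0.0346). Wif1, which also binds Wnts directly, measured 16.0, 118, 10.7 and 5.99 CPM in primary, 1.46, 1.86, 1.90, 0.889 and 1.54 CPM in SIRMu-1 and 2.54, 1.05 and 0.658 CPM in rMC-1 cultures. The groups of the lines lay wholly below the primary values, of which replicate 2 was far the highest. Wif1 fell in SIRMu-1 (log2 -4.63 ± 0.84, edgeR adjusted p = 0.00101) and in rMC-1 (log2 -4.74 ± 1.04, edgeR adjusted p = 0.00158). Without primary replicate 2 the values were -2.84 and -2.95, and without rMC-1 replicate 1 the latter was -5.40.

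Dkk3, a divergent Dickkopf family member that Müller glia are known to express, measured 1414, 1524, 1188 and 772 CPM in primary, 349.9, 442, 399, 310.3 and 410.4 CPM in SIRMu-1 and 2.34, 0.309 and 0.342 CPM in rMC-1 cultures. The groups did not overlap. Dkk3 fell in rMC-1 (log2 -10.30 ± 0.78, edgeR adjusted p = 6.39e-07) and was higher in SIRMu-1 than in rMC-1 (log2 8.62 ± 0.73, edgeR adjusted p = 2.07e-06), or -11.80 and 10.09 without rMC-1 replicate 1. It also fell in SIRMu-1 (log2 -1.68 ± 0.43, edgeR adjusted p = 0.00785), a call lost after summing libraries that share a code (edgeR adjusted p = 0.0519) or with SIRMu-1 cultures matched for drugs (0.111). Dkk2, which binds Lrp5 and Lrp6, had 75 counts in primary, 31 in SIRMu-1 and none in rMC-1 cultures, which was at least 31.3-fold lower than primary and 8.90-fold lower than SIRMu-1. The second of these calls was lost without any 1 rMC-1 replicate (edgeR adjusted p = 0.054 to 0.0631).

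Notum, the enzyme that removes the lipid from Wnt proteins, was the inhibitor that rose in rMC-1. It measured 0.197, 0.0748, 0 and 0.264 CPM in primary, 0.107, 0.0315, 0.124, 0.0987 and 0.112 CPM in SIRMu-1 and 1.54, 1.67 and 1.26 CPM in rMC-1 cultures. All rMC-1 values lay above all others, at a low level. Notum rose in rMC-1 against primary cultures (log2 3.44 ± 0.65, edgeR adjusted p = 0.000575) and was lower in SIRMu-1 than in rMC-1 (log2 -3.94 ± 0.62, edgeR adjusted p = 0.000177). Dkk4 passed no comparison, Dkk1 had no count in any library, and Sfrp5 had 1, 1 and 0 counts in primary, SIRMu-1 and rMC-1 cultures.

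**Figure D4:**
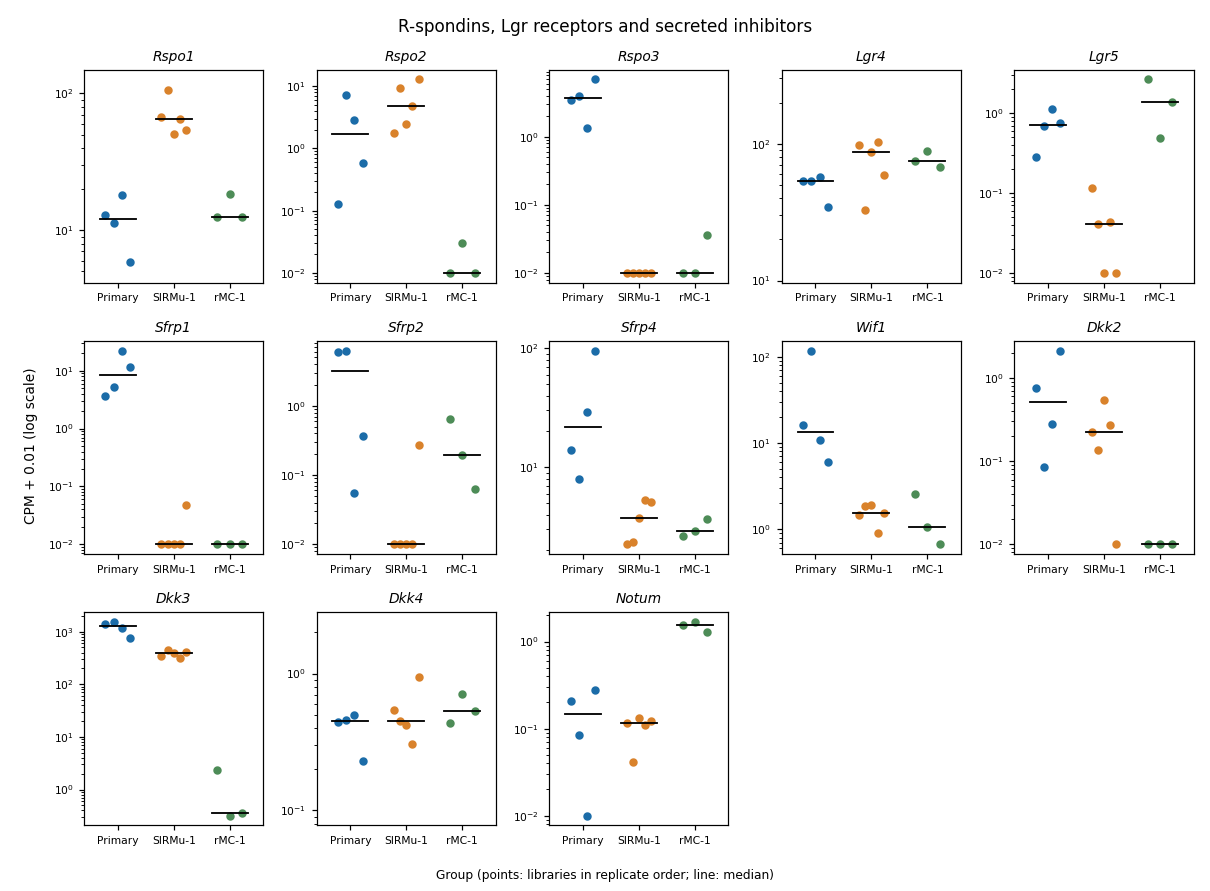
Level of the R-spondins, Lgr receptors and secreted inhibitors that were tested, as CPM plus 0.01 on a log axis, with a point per library in replicate order and a line at each group's median. Rspo3 and Sfrp1 lie at or near the bottom in both lines, Dkk3 falls in 3 separate steps, and Rspo1 is highest in SIRMu-1.

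Ctnnb1, the gene of β-catenin, measured 381, 420.5, 478 and 411 CPM in primary, 369, 351, 387, 387 and 340.1 CPM in SIRMu-1 and 354, 336 and 388 CPM in rMC-1 cultures. The groups overlapped and no comparison passed. Against primary cultures, SIRMu-1 did not pass (log2 -0.20 ± 0.09, edgeR adjusted p = 0.0948, 95% interval -0.41 to 0.00), nor did rMC-1 (log2 -0.23 ± 0.11, edgeR adjusted p = 0.0695, 95% interval -0.47 to 0.00). The latter passed without primary replicate 1 (edgeR adjusted p = 0.0408). DESeq2 called both differences. Between the lines it was log2 0.03 ± 0.10, edgeR adjusted p = 0.822, and with library totals in place of TMM factors it was -0.42 (edgeR adjusted p = 0.0028).

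Axin2, Nkd1 and Nkd2, feedback genes whose products act against Wnt signals, fell in rMC-1. Of the other Wnt genes on the list of β-catenin targets below, Notum rose there (log2 3.44 ± 0.65, edgeR adjusted p = 0.000575). Lgr5, Lef1 and Tcf7l1 of that list did not pass in rMC-1 against primary cultures. Axin2, a scaffold of the destruction complex and a standard readout of the pathway, measured 3.39, 2.92, 2.19 and 11.7 CPM in primary, 2.35, 4.19, 4.33, 2.30 and 0.862 CPM in SIRMu-1 and 1.03, 0.309 and 0.527 CPM in rMC-1 cultures. All rMC-1 values lay below the primary ones, and SIRMu-1 overlapped both groups. Axin2 fell in rMC-1 (log2 -3.03 ± 0.75, edgeR adjusted p = 0.00347), or fell by 2.20 on the log2 scale without primary replicate 4, the highest. In SIRMu-1 against primary cultures it was log2 -0.85 ± 0.58, edgeR adjusted p = 0.256. The difference between the lines (log2 2.18 ± 0.71, edgeR adjusted p = 0.0182) did not pass without rMC-1 replicate 2 (0.086) or 3 (0.0738).

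Nkd1 and Nkd2 encode proteins that bind Dishevelled. Nkd1 measured 18.7, 35.0, 4.02 and 8.55 CPM in primary and 0.356, 0.661, 0.908, 0.132 and 0.0749 CPM in SIRMu-1 cultures, with 1 count in all of rMC-1. Each group lay wholly below the one before it. Nkd1 fell in SIRMu-1 (log2 -5.28 ± 0.77, edgeR adjusted p = 0.000264), or fell by 4.61 on the log2 scale without primary replicate 2. Against rMC-1, the count ratio was 2118 (95% counting interval 379.7 to 83725) for primary cultures and for SIRMu-1 50.8 (95% counting interval 8.77 to 2041), with edgeR adjusted p of 3.83e-05 and 0.00738. The latter rests on 59 counts in SIRMu-1 and was lost after summing libraries that share a code. Nkd2 measured 897, 903, 297 and 509 CPM in primary, 109, 322, 188, 124 and 159 CPM in SIRMu-1 and 2.62, 2.16 and 1.34 CPM in rMC-1 cultures. It fell in SIRMu-1 (log2 -1.85 ± 0.38, edgeR adjusted p = 0.00226), where replicate 2 overlapped primary replicate 3, and in rMC-1 (log2 -8.31 ± 0.63, edgeR adjusted p = 6.43e-07), and the lines differed (log2 6.46 ± 0.58, edgeR adjusted p = 3.07e-06).

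The promoters of Axin2 and Nkd1 are printed because of CTTTGAT, a form of the TCF and LEF motif. Of 27 tested Wnt genes with a RefSeq window, only these held CTTTGAT or its reverse complement ATCAAAG in the 250 bases before the gene's start. Other forms of the motif were not searched. Capitals mark CTTTGAT, the build is GRCr8, and letters run 5′ to 3′ on the gene's strand.
Axin2 (chr10:94398535-94398784, plus strand): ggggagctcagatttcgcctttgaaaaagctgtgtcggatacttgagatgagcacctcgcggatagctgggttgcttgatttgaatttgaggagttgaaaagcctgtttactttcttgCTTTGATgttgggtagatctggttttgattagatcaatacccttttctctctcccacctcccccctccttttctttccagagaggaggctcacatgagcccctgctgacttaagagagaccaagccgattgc
Nkd1 (chr19:34722847-34723096, minus strand): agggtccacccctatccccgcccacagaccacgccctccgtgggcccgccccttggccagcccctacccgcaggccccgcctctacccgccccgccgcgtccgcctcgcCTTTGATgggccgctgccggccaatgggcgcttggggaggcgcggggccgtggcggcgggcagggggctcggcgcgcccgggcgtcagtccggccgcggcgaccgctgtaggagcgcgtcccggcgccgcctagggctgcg
This form begins 132 bases before the start of Axin2 and 141 bases before that of Nkd1. It occurs on either strand in 3.15% of all RefSeq promoter windows of this length (1054 of 33469), and a match describes these letters only.

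Lef1, a partner of β-catenin on DNA and also a target of the pathway, measured 9.07, 8.35, 0.537 and 12.3 CPM in primary, 0.107, 0.189, 0.372, 0.329 and 0.0749 CPM in SIRMu-1 and 4.36, 1.96 and 3.03 CPM in rMC-1 cultures. Every SIRMu-1 value lay below every other, and primary replicate 3 stood far below the rest of its group. Lef1 fell in SIRMu-1 against primary cultures (log2 -5.12 ± 0.77, edgeR adjusted p = 0.000305) and was lower in SIRMu-1 than in rMC-1 (log2 -3.84 ± 0.77, edgeR adjusted p = 0.00101). In rMC-1 against primary cultures it was log2 -1.28 ± 0.76, edgeR adjusted p = 0.147, and -1.67 (edgeR adjusted p = 0.00714) without primary replicate 3. Tcf7l1, mostly a repressor of Wnt targets, measured 36.7, 35.3, 36.9 and 15.1 CPM in primary, 59.4, 54.6, 50.7, 63.3 and 87.5 CPM in SIRMu-1 and 45.9, 51.7 and 42.7 CPM in rMC-1 cultures. All primary values lay below the lines. Tcf7l1 rose in SIRMu-1 (log2 1.02 ± 0.25, edgeR adjusted p = 0.00592) and did not pass in rMC-1 (log2 0.59 ± 0.28, edgeR adjusted p = 0.0725), where it passed without SIRMu-1 replicate 5 (0.0395). Between the lines it was log2 0.43 ± 0.27, edgeR adjusted p = 0.181, and passed without primary replicate 4 (0.0386).

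Tcf7l2, the TCF factor best known from intestine and brain, measured 36.0, 39.9, 42.0 and 28.7 CPM in primary, 41.7, 46.1, 31.0, 34.9 and 54.5 CPM in SIRMu-1 and 68.0, 86.9 and 73.6 CPM in rMC-1 cultures. All rMC-1 values lay above all others. Tcf7l2 rose in rMC-1 against primary cultures (log2 1.05 ± 0.19, edgeR adjusted p = 0.000421) and was lower in SIRMu-1 than in rMC-1 (log2 -0.87 ± 0.18, edgeR adjusted p = 0.0013). The order of groups thus differed between the 3 factors: Lef1 was lowest in SIRMu-1, Tcf7l1 lowest in primary cultures and Tcf7l2 highest in rMC-1.

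**Figure D5:**
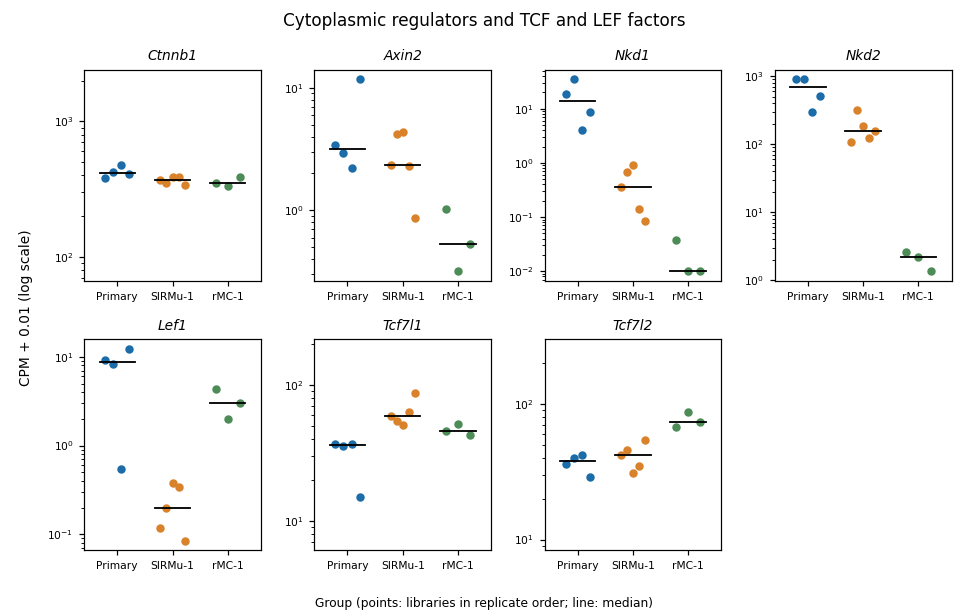
Level of Ctnnb1, Axin2, Nkd1, Nkd2, Lef1, Tcf7l1 and Tcf7l2, as CPM plus 0.01 on a log axis, with a point per library in replicate order and a line at each group's median. Ctnnb1 ranges from 336 to 478 CPM over all 12 libraries, while Nkd1 and Nkd2 are lowest in rMC-1 and Lef1 in SIRMu-1.

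Other genes of the pathway were read from 5 lists. Of 14 tested modulators outside the cell or at the membrane, 7 fell and none rose in SIRMu-1 against primary cultures, and 13 fell and none rose in rMC-1. The shares called were 50% and 92.9%, beside 46.1% and 70.8% of all genes, and the medians -0.92 and -3.84 on the log2 scale, beside -0.02 and -0.15 over all genes. Between the lines, 9 were higher and 1 lower in SIRMu-1, or 71.4% beside 63.2% of all genes. Tspan12, the partner of Fzd4 in the norrin receptor, averaged 43.0 ± 17.8 CPM (SD, n = 4) in primary and 1.47 ± 0.608 CPM (n = 3) in rMC-1 cultures, and had 2 counts in all of SIRMu-1. The ratio of primary to SIRMu-1 was 3071 (95% counting interval 849.6 to 25366), and the fall in rMC-1 was log2 -4.87 ± 0.47, edgeR adjusted p = 3.42e-06. Norrin itself, Ndp, had no count in any library. Sostdc1, a secreted Wnt and BMP antagonist, averaged 62.8 ± 48.2 CPM (n = 4) in primary cultures, and was at least 3093-fold lower in SIRMu-1, with no count, while rMC-1 had 1 count, a ratio of 7993 (95% counting interval 1434 to 315763).

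The glypicans, proteoglycans of the cell surface that bind Wnts, split. Gpc3 averaged 17.7 ± 7.73 CPM in primary cultures (n = 4), fell in SIRMu-1 (log2 -8.17 ± 0.53, edgeR adjusted p = 6.5e-06) and was at least 729-fold lower in rMC-1, with no count. Gpc4 averaged 751 ± 236 CPM in primary (n = 4), 1045 ± 268 CPM in SIRMu-1 (n = 5) and 0.358 ± 0.138 CPM in rMC-1 cultures (n = 3). Gpc4 fell in rMC-1 (log2 -10.99 ± 0.49, edgeR adjusted p = 2.16e-08) and did not pass in SIRMu-1 (log2 0.48 ± 0.26, edgeR adjusted p = 0.15). Ptk7, a co-receptor of the polarity branch, and Reck, a co-receptor for Wnt7 ligands, fell in rMC-1 (log2 -1.88 ± 0.24, edgeR adjusted p = 2.78e-05, and log2 -2.31 ± 0.21, edgeR adjusted p = 2.5e-06). Rnf43, which removes Frizzled receptors from the surface, did not pass (log2 -0.34 ± 0.62, edgeR adjusted p = 0.679, in SIRMu-1 and log2 -0.99 ± 0.73, edgeR adjusted p = 0.238, in rMC-1). Frzb had 50 counts in primary, 33 in SIRMu-1 and none in rMC-1 cultures, at least 20.9-fold lower than primary.

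Of 18 genes of the relay to β-catenin and the destruction complex, 2 rose and 4 fell in SIRMu-1 and 10 rose and 4 fell in rMC-1, against primary cultures (medians 0.03 and 0.37 on the log2 scale). Their shares of 33.3% and 77.8% stand beside 46.1% and 70.8% of all genes, and their medians beside -0.02 and -0.15. Between the lines, 3 were higher and 8 lower in SIRMu-1, or 61.1% beside 63.2% of all genes. Apc and Gsk3b, the scaffold and kinase of the complex, are its best known parts. Apc fell in SIRMu-1 (log2 -0.32 ± 0.11, edgeR adjusted p = 0.0386) and did not pass in rMC-1 (log2 -0.18 ± 0.13, edgeR adjusted p = 0.228), and Gsk3b passed in neither (log2 -0.18 ± 0.13, edgeR adjusted p = 0.293, and log2 -0.35 ± 0.15, edgeR adjusted p = 0.053). The call of Apc was lost without any 1 of primary replicates 2 and 3, rMC-1 replicate 3 and SIRMu-1 replicates 1 to 4 (edgeR adjusted p = 0.0506 to 0.0939), and Gsk3b passed in rMC-1 without primary replicate 1 (0.0166) or 4 (0.0379). Apc2, the neural relative of Apc, fell in rMC-1 (log2 -7.54 ± 0.38, edgeR adjusted p = 4.71e-08; 50.3 ± 10.5 CPM in primary cultures, n = 4, and 0.268 ± 0.0637 CPM in rMC-1, n = 3) and in SIRMu-1 (log2 -0.80 ± 0.22, edgeR adjusted p = 0.0126). Amer1, a membrane recruiter of Apc, rose in rMC-1 (log2 3.52 ± 0.25, edgeR adjusted p = 4.48e-07). The casein kinase Csnk1e (log2 1.31 ± 0.12, edgeR adjusted p = 1.96e-06) and the β-catenin inhibitor Ctnnbip1 (log2 1.19 ± 0.14, edgeR adjusted p = 1.22e-05) also rose there.

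Of 15 nuclear cofactors, 2 rose and 2 fell in SIRMu-1, and 4 rose and 3 fell in rMC-1, with medians of 0.07 and -0.11 on the log2 scale, and 4 were higher and 2 lower in SIRMu-1 than in rMC-1. The shares called against primary cultures, 26.7% and 46.7%, lay below the 46.1% and 70.8% of all genes. Between the lines the share was 40%, beside 63.2% of all genes. Pygo2, which links β-catenin to chromatin, rose in rMC-1 (log2 0.99 ± 0.11, edgeR adjusted p = 9.75e-06), and the corepressors Tle1 and Tle4 fell there (log2 -1.21 ± 0.25, edgeR adjusted p = 0.00105, and log2 -1.25 ± 0.33, edgeR adjusted p = 0.00513). Of 14 planar cell polarity genes, 3 rose and 3 fell in SIRMu-1, and 3 rose and 8 fell in rMC-1, with medians of 0.05 and -1.22 on the log2 scale, and 8 were higher and 4 lower in SIRMu-1 than in rMC-1. Here the shares were 42.9% and 78.6% against primary cultures, near those of all genes, and 85.7% between the lines, beside 63.2%. The medians of both lists stand beside -0.02 and -0.15 over all genes. The core component Prickle2 averaged 84.5 ± 24.2 CPM in primary (n = 4), 26.4 ± 5.64 CPM in SIRMu-1 (n = 5) and 0.605 ± 0.291 CPM in rMC-1 cultures (n = 3), falling in both lines (log2 -1.68 ± 0.25, edgeR adjusted p = 0.000294, and log2 -7.14 ± 0.41, edgeR adjusted p = 9.53e-08). The atypical cadherin Celsr2 averaged 8.70 ± 8.62 CPM, 1.82 ± 1.34 CPM and 254 ± 11.5 CPM in the same groups, falling in SIRMu-1 (log2 -2.25 ± 0.63, edgeR adjusted p = 0.0119) and rising in rMC-1 (log2 4.87 ± 0.73, edgeR adjusted p = 9.67e-05). Without primary replicate 4 these values were -1.33 (edgeR adjusted p = 0.0549) and 5.80. Vangl1 and Scrib, 2 further genes of the polarity list, rose in rMC-1 (log2 1.08 ± 0.13, edgeR adjusted p = 1.89e-05, and log2 1.19 ± 0.12, edgeR adjusted p = 5.62e-06).

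Of 18 tested genes often cited as targets of β-catenin and TCF, 2 rose and 7 fell in SIRMu-1 against primary cultures. In rMC-1, 2 rose and 9 fell. These shares of 50% and 61.1% stand beside 46.1% and 70.8% of all genes. The list of 20 holds 7 of the Wnt genes above: Axin2, Nkd1, Notum, Lgr5, Lef1, Tcf7l1 and the untested Dkk1. Medians of the tested genes were -0.60 and -1.06 on the log2 scale, beside -0.02 and -0.15 over all genes. Between the lines, 7 were higher and 5 lower in SIRMu-1, or 66.7% beside 63.2% of all genes. Myc averaged 20.0 ± 7.93 CPM in primary (n = 4), 20.2 ± 4.57 CPM in SIRMu-1 (n = 5) and 101 ± 13.6 CPM in rMC-1 cultures (n = 3), rising in rMC-1 (log2 2.34 ± 0.28, edgeR adjusted p = 1.91e-05) and not passing in SIRMu-1 (log2 0.02 ± 0.25, edgeR adjusted p = 0.962). Ccnd1, the gene of cyclin D1, averaged 667 ± 279 CPM, 629 ± 170.2 CPM and 150.3 ± 54.4 CPM in these groups, and fell in rMC-1 (log2 -2.15 ± 0.38, edgeR adjusted p = 0.000326) without passing in SIRMu-1 (log2 -0.08 ± 0.31, edgeR adjusted p = 0.841). Wisp2 rose in SIRMu-1 (log2 1.64 ± 0.34, edgeR adjusted p = 0.00243) and fell in rMC-1 (log2 -5.19 ± 0.47, edgeR adjusted p = 2.23e-06). Leaving out rMC-1 replicate 2 gave a Wisp2 change of -5.94 on the log2 scale. Tbx3 fell in SIRMu-1 (log2 -1.99 ± 0.45, edgeR adjusted p = 0.00369) and had 1 count in rMC-1 against 2911 in primary cultures. Bambi, a decoy receptor for TGF-β ligands, fell in both lines (log2 -1.71 ± 0.44, edgeR adjusted p = 0.00792, and log2 -5.20 ± 0.64, edgeR adjusted p = 2.1e-05). Members of this list therefore moved in both directions within each line. In SIRMu-1 against primary cultures, Bambi and Tbx3, and of the other lists Apc2 and Celsr2, lost their call with drug-matched SIRMu-1 cultures (edgeR adjusted p = 0.109, 0.0733, 0.131 and 0.164), and Bambi, Tbx3 and Celsr2 also after summing libraries that share a file-name code (0.15, 0.0725 and 0.104), as did Apc (0.105). In rMC-1 the corepressor Tle4 lost its call under library totals (0.0652).

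Within SIRMu-1, the 2 cultures with gentamicin and amphotericin B were set against the 3 without. None of the 43 Wnt genes was called by edgeR, as was none of all genes tested (0%), and 1 reached an unadjusted p under 0.05. DESeq2 called none of them, with 2 at an unadjusted p under 0.05. The 1 gene was Wnt7b, which averaged 0.0394 CPM with and 0.722 CPM without the drugs (log2 -4.07 ± 1.41, edgeR adjusted p = 0.977). Passage differs among these cultures too.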

How the data were processed

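Libraries were grouped by their labels alone. The submitters' processing notes name STAR 2.5.3a, cutadapt 1.8.1, edgeR 3.18.1 and build rn6, with roles, annotation and strand setting not given in the sources used here, so genes that overlap or have close copies are uncertain. The authors deposited whole-number read counts for 17315 genes per library, not normalized. Reads in no gene (37.0% to 44.2% of a library) stayed out of library sizes and tests.

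Testing used edgeR 4.0.16 in R 4.3.3 on these counts: expression filter, TMM factors, a quasi-likelihood fit of 3 group means over 12 libraries (9 residual degrees of freedom) and Benjamini-Hochberg adjustment over 11321 genes. The drug comparison split SIRMu-1 into 2 and 3 libraries (8 residual degrees of freedom). The members and the gene lists were chosen with earlier results of these data known. Values per library are given for tested members that reached a mean of 5 CPM in a group and were called at least once, and for Ctnnb1, Lrp6, Axin2 and Nkd1, and, chosen after their values were seen, for the less abundant Rspo3 and Notum. From each other list, up to 4 called genes per direction with no overlap and the largest fold changes could be named, plus genes set beforehand. Floors are 3 counts over a group, and counting intervals are exact at 95% and cover counting error only. The spread that p-values measure is that of these libraries alone and may be technical. Chi-square per gene between replicates was 24.2 to 443.6, so none were duplicates.

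Tested on simulated data, the fit recovered 55.6%, 45.5% and 46.9% of 2-fold changes and 83.5%, 84.5% and 87.6% of 4-fold changes for SIRMu-1 against primary cultures (11180 genes), rMC-1 against primary cultures (11179) and SIRMu-1 against rMC-1 (11176). Of the calls, 4.9%, 5.2% and 3.7% fell on unchanged genes. Only 97 to 99 genes were changed at each size, and all others had equal group means. In the data themselves 46.1% to 70.8% of genes were called, so these rates need not hold there. Alternatives were DESeq2 1.42.0, other scalings and filters, each library left out, a replicate block, summed libraries and drug-matched cultures. RefSeq promoter windows matched 40 of the 56 symbols.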

Additional observations from a re-analysis of the deposited data

Results flagged for a closer look

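In 9 of 65 tests of a gene in a group, 1 library stood apart from the others by Dixon's 95% criterion, which chance meets in about 5% of such tests. In SIRMu-1, replicate 2 was high for Wnt4 (5.44 CPM, others 0.743 to 1.15 CPM) and Wnt5b (5.98 CPM, others 1.65 to 1.96 CPM), and replicate 5 was high for Lrp5 (73.6 CPM, others 28.4 to 31.3 CPM). Among primary cultures, replicate 4 was low for Lgr4 (34.6 CPM, others 53.3 to 56.8 CPM), Fzd2 (87.7 CPM, others 164 to 186 CPM), Fzd4 (23.2 CPM, others 82.4 to 99.4 CPM) and Tcf7l1 (15.1 CPM, others 35.3 to 36.9 CPM). Primary replicate 3 was low for Lrp5 (69.7 CPM, others 138 to 145 CPM) and Lef1 (0.537 CPM, others 8.35 to 12.3 CPM).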

How the results depend on the processing

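Counts of called Wnt genes stayed within 1.5 times the reported 24, 27 and 24 in every alternative run but 1: after summing libraries that share a file-name code, SIRMu-1 against primary cultures gave 14, and 26.5% of all genes were called. Leaving out each library in turn gave 21 to 27 calls for SIRMu-1 against primary cultures, 24 to 30 for rMC-1 against primary cultures, 20 to 24 between the lines and 0 for the drugs. Over 21, 20 and 21 alternatives, 10 of 24, 22 of 27 and 17 of 24 called genes kept their call wherever they were tested. Under library totals in place of TMM factors, Btrc (0.0235, edgeR adjusted p = 0.846), Fbxw11 (0.12, 0.419) and Ppp2ca (0.12, 0.367) turned sign on the log2 scale in rMC-1 against primary cultures, as did Ctnnb1 (-0.42, 0.0028), Fbxw11 (-0.0583, 0.682) and Ppp2ca (-0.0834, 0.512) between the lines. This scaling moves the median of all genes, and a change of sign between values that were called in neither fit was not counted. Replicate numbers did not pair the libraries (correlations of deviations -0.063 to 0.098). With a replicate block, 24, 28 and 25 genes were called, and 0 for the drugs. Members with few counts, such as Wnt6 and Notum, are limited by depth.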
